A study of Mus musculus with 9 samples.

Results

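Retinas of mice whose right eye had been injected with HAN were compared with retinas injected with phosphate-buffered saline (PBS), 7 days after the injection. The samples were chosen by their titles and make up 6 of the 9 arrays of the series, 3 for HAN and 3 for PBS, and the other 3 arrays measured retinas injected with AAP. HAN and AAP are described in the series title as peptides that bind vascular endothelial growth factor (VEGF) with high affinity. All mice were adult C57BL/6 males, with 12 mice in a group, and the agent was given into the vitreous. The labels give 1 µM for the injection and word it for PBS as well. Each array measured total RNA of 4 pooled retinas, so a value is that of a pool and not of a mouse. Both groups were injected, and no uninjected retina was analysed here. The p-values therefore rest on the spread among 3 pools per group, and the labels do not say how mice were assigned to pools. RNA came from whole retina, in which fewer cells of a type and less RNA per cell cannot be told apart.

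VEGF is the growth factor that drives vessel growth and leakage, and it acts through the receptors Kdr and Flt1 and the co-receptor Nrp1. The retina is built of photoreceptors, bipolar, amacrine, horizontal and ganglion cells, held together by Mueller glia and patrolled by microglia, its resident phagocytes. An injury to the eye is known to switch on stress genes in ganglion cells, intermediate filaments in Mueller glia, and interferon and antigen presentation genes in microglia and glia.

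The 6 pools had similar profiles. Across genes, which are not independent replicates, Pearson's r was 0.991 to 0.995 within HAN, 0.989 to 0.994 within PBS and 0.990 to 0.995 between HAN and PBS. On the log2 scale the SD over 3 pools had a median of 0.0989 in PBS and 0.100 in HAN. Between 75.2% and 79.2% of spots were well above background, the 75th percentile of the signal ran from 1937 to 2349, and no spot was saturated. Rod genes, which mark retina, averaged 4.74 to 5.02 log2 units above the array's 75th percentile in the 6 pools. The 3 PBS arrays lay on slide 1 (with AAP 1), HAN 1 and HAN 2 on slide 2 (with AAP 2 and AAP 3) and HAN 3 alone on slide 3. No slide held both groups, so slide and group cannot be told apart directly. A fit with slide as a fixed block reaches HAN minus PBS only by way of the AAP pools, and HAN 3 adds nothing to it. On slide 1 the link is AAP 1 alone, whose skeletal muscle genes averaged 5.23 and cornea genes 1.62 above the PBS mean. The part of this pool in the slide-block values below was not tested. Levels below are log2 signals relative to the array's 75th percentile, and differences are HAN minus PBS on the log2 scale.

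Most of the retinal transcriptome differed little between HAN and PBS. Of 23854 genes tested, 96.9% lay within 1.5-fold between the group means, and the median difference was 0.005. A single transcript was higher in HAN at an adjusted p under 0.05 with limma (0.00419% of genes), and 0 were lower (0%). At an unadjusted p under 0.05, 1606 genes were higher and 1438 lower, where 1192.7 in all would pass by chance. This count depended on the processing: under normexp background correction 343 were higher and 299 lower. With the replicate number as a block 1005 were higher and 934 lower. Every HAN pool lay above every PBS pool for 2490 genes (10.4%) and below for 2483 (10.4%). A difference of more than 2-fold was seen for 96 genes that were higher and 110 that were lower. The 95% interval of a difference, not adjusted for the number of genes, had a median half-width of 1.16-fold. Differences smaller than that were mostly not detectable with 3 pools in a group. Larger ones also failed to pass after adjustment, such as Galr2 at 1.7-fold with pools that did not overlap.

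**Figure D1:**
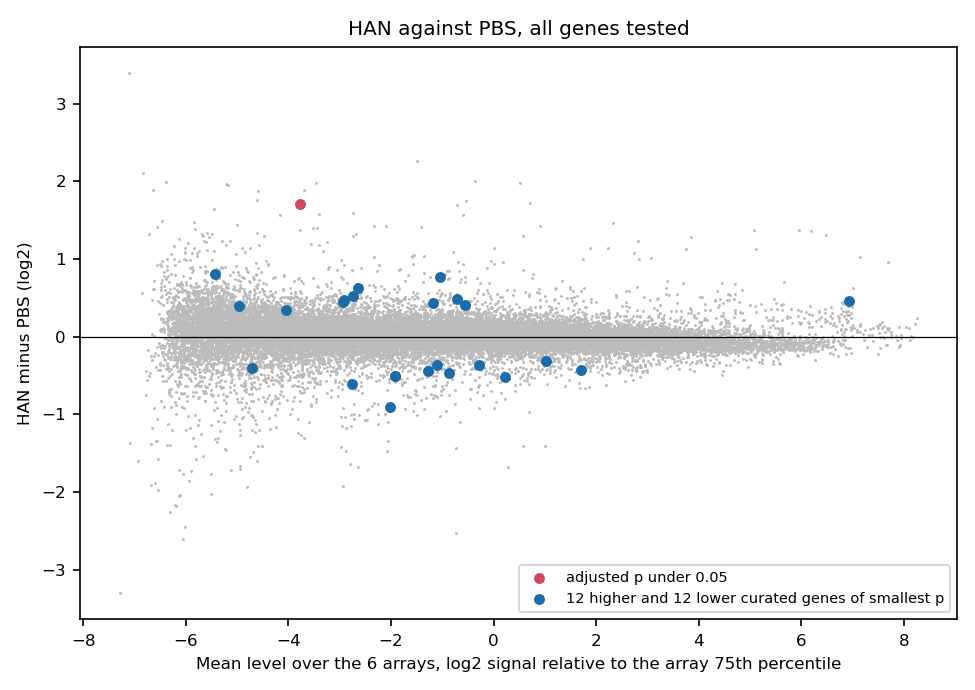
Difference between HAN and PBS (log2, vertical) against the mean level over the 6 arrays (log2 signal relative to the array 75th percentile, horizontal), with 1 point per gene for all 23854 genes tested. The red point is the transcript that passed adjusted p under 0.05 at a difference of 1.71; the blue points are the 12 curated genes of smallest p in each direction whose pools did not overlap, none of which passed.

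The transcript that passed has no gene symbol in the tables used and is known here by its accession, ENSMUST00000072628. Its level was -4.59, -4.56 and -4.74 in the PBS pools and -2.96, -2.82 and -2.98 in the HAN pools. Every HAN pool was thus more than 1 log2 unit above every PBS pool, and all 6 arrays measured it well above background. It rose by 1.71 (SE 0.08, limma, adjusted p = 0.0195). The call was lost with quantile normalisation (adjusted p = 0.0556), with normexp background correction (0.633), without the filter on dim probes (0.0891), with slide as a fixed block (0.0796) and with the replicate number as a block (0.583). It was also lost without PBS 1, PBS 2, PBS 3, HAN 1 or HAN 2 (adjusted p = 0.313, 0.113, 0.0682, 0.103 and 0.143), while the difference stayed between 1.503 and 1.756 under all alternatives run. In the AAP pools it lay 1.22 above the PBS mean.

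Next in order of p was NM_054080, a transcript without a symbol in the table, which was chosen for mention after its values were seen. It read -5.27, -5.41 and -6.20 in PBS and -8.97, -9.01 and -8.79 in HAN. None of the HAN arrays had it well above background, so the filter kept it through the PBS pools only. Against the lowest signal above background its mean was at least 2.01-fold lower in HAN, and it did not pass (limma, adjusted p = 0.173). It passed as lower when arrays were scaled to their median and without PBS 3, and its sign turned under normexp correction (0.19).

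Among curated genes with a symbol, none passed, and the 12 of smallest p in each direction, with HAN and PBS pools that did not overlap, are described here as values. Of the higher ones, Ciart, a repressor of the circadian clock, read -2.97, -3.06 and -2.98 in PBS and -2.46, -2.52 and -2.46 in HAN. The HAN pools were within 0.1 of each other and all above PBS. The difference was 0.53 (SE 0.06, limma, adjusted p = 0.292). Larger differences were measured for Galr2, a galanin receptor (0.80), Pxmp4, a peroxisomal membrane protein (0.77), and Arhgef33, a guanine nucleotide exchange factor (0.63). The others were H2al2a, a histone variant (0.47), Col22a1, a collagen (0.45), Gcm1, a placental transcription factor (0.45), Cwc25, a splicing factor (0.43), Ccdc62 (0.39) and Atp2a1, the calcium pump of fast muscle (0.35). The Gcm1 probe read 6.61, 6.82 and 6.69 in PBS and 7.18, 7.19 and 7.11 in HAN. That is near the level of the rod gene Gnat1 (mean 7.60 in PBS), and whether the probe reports Gcm1 was not tested. Rexo1 (0.40) and Arid4a (0.49) complete the higher 12, but other probes of these genes gave -0.03 for Rexo1 and -0.07 to 0.05 for Arid4a. Each of these 12 had a limma adjusted p of 0.292. H2al2a turned to -0.02 with slide as a fixed block.

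Of the lower ones, Golt1a, a Golgi transport protein, read -1.75, -1.58 and -1.36 in PBS against -2.68, -2.35 and -2.37 in HAN. All HAN pools lay lower, and the difference was -0.90 (SE 0.14, limma, adjusted p = 0.292). Histone genes H3c7 (-0.61) and H4c9 (-0.44) were lower, as were Spp1, the secreted phosphoprotein osteopontin (-0.50), Tas2r113, a bitter taste receptor (-0.50), and Selenop, the plasma selenium carrier (-0.43). Fkbp11, a chaperone of the secretory pathway (-0.40), Prl3d1, a placental hormone (-0.37), and Shisa5, an endoplasmic reticulum protein (-0.31, other probe -0.11), followed. Cutal had the smallest p of all symbols (-0.52, limma, adjusted p = 0.251), yet its other probe read 0.08. Sema6d (-0.47) and Tet3 (-0.36), a DNA demethylase, likewise had probes of the other sign, at 0.41 for Sema6d and up to 0.04 for Tet3. Under normexp correction Fkbp11 turned to 0.52, and with slide as a fixed block Selenop turned to 0.22.

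**Figure D2:**
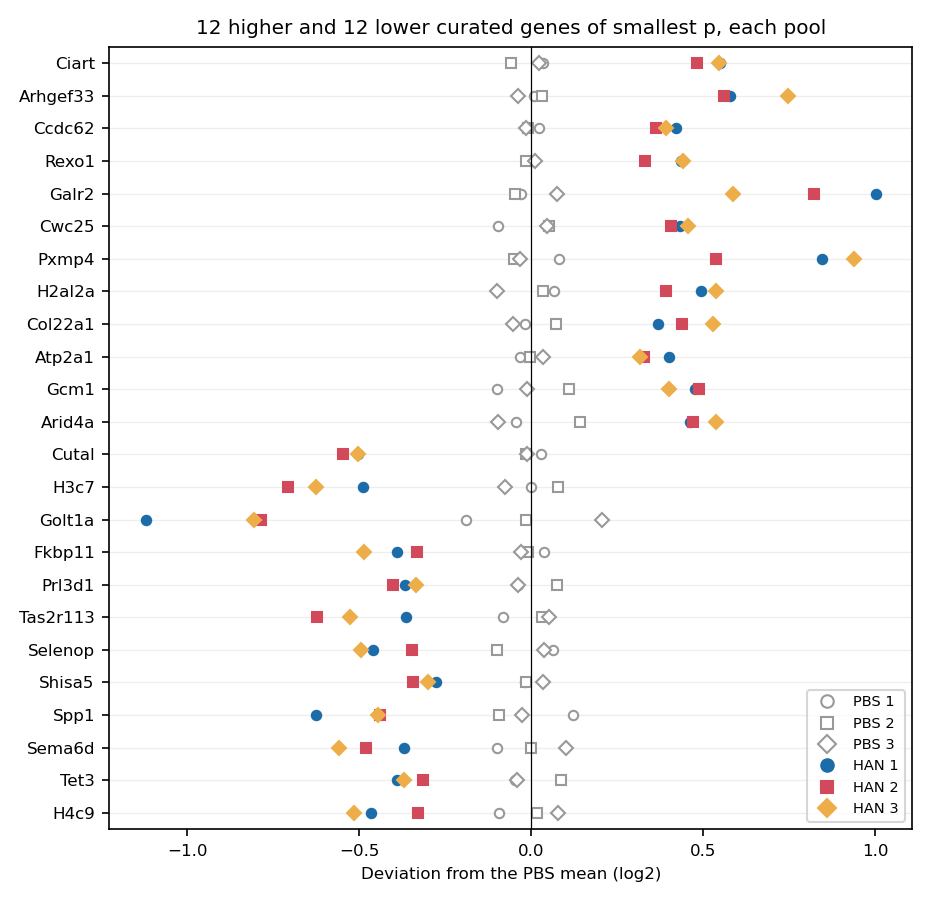
Deviation of each pool from the PBS mean (log2, horizontal) for the 12 higher and 12 lower curated genes of smallest p, with open grey symbols for the 3 PBS pools and filled symbols for the 3 HAN pools. HAN pools lie apart from PBS pools in every row because the genes were chosen that way; the differences range from 0.35 to 0.80 and from -0.90 to -0.31, and no gene passed the threshold.

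Interferon-stimulated genes encode antiviral and antigen-processing proteins that are switched on by interferon through the Stat and Irf factors. Of 33 tested, 32 were lower and 1 was higher in HAN, with a median difference of -0.47, against 48.6% lower and a median of 0.005 over all genes. None passed. Every HAN pool lay below every PBS pool for 7 of the 33, where 10.4% of all genes did so, and above for 1. The list mean lay at -0.66, -0.81 and -0.30 in HAN 1, HAN 2 and HAN 3 relative to the PBS mean, and at -0.07, 0.43 and -0.36 in PBS 1, PBS 2 and PBS 3. HAN 3 thus lay inside the PBS range. Without PBS 2 the median was -0.35, and without PBS 3 it was -0.62. Under normexp correction it was -0.30 with 24 of 33 lower, and with slide as a fixed block -0.18 with 22 of 33 lower.

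Bst2, also called tetherin, which holds budding virus at the cell surface, read -0.02, 0.49 and 0.05 in PBS and -0.84, -1.01 and -0.40 in HAN. All HAN pools lay below all PBS pools, by -0.92 on average (SE 0.21, limma, adjusted p = 0.292). Lgals3bp, a secreted glycoprotein, differed by -0.46, the guanylate-binding protein gene Gbp6 by -0.38 and Ifi35 by -0.34, each with pools that did not overlap and a limma adjusted p of 0.292. Isg15, Gbp3 and Cxcl10 were added after their values were seen. Isg15, a ubiquitin-like protein, read 0.19, 1.27 and 0.09 in PBS and -0.47, -0.24 and 0.07 in HAN, so that HAN 3 almost reached PBS 3. Gbp3 differed by -1.02 and the chemokine Cxcl10 by -1.68, but their pools overlapped (limma, adjusted p = 0.370 and 0.451). Ifi35 turned to 0.04 under normexp correction and Cxcl10 to 0.44 with slide as a fixed block.

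**Figure D3:**
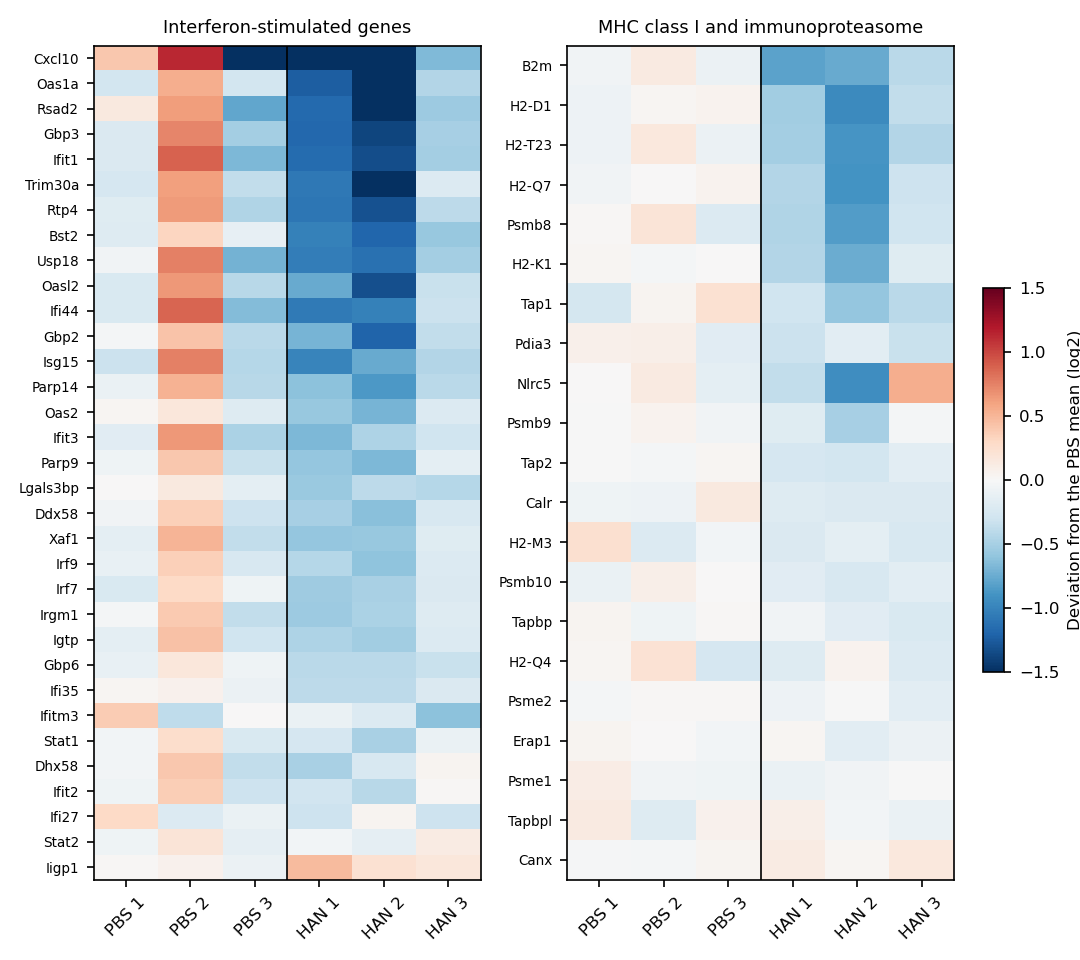
Deviation of each pool from the PBS mean (log2, colour scale from -1.5 to 1.5, larger values drawn at the ends) for the 33 interferon-stimulated genes (left) and 21 class I presentation genes (right) tested, in columns PBS 1 to 3 and HAN 1 to 3. HAN 1 and HAN 2 are bluest, HAN 3 paler, and PBS 2 is red for most interferon genes; with slide as a fixed block the class I median turns to 0.05.

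The promoters of these genes were read from RefSeq windows of the build GRCm38.p6 that run from 250 bases before to 50 after a start site, and 23 of the 33 genes had a window. The interferon-response motif (GAAA, any 2 bases, then GAAA), searched on both strands, was found in 13 of the 23 (56.5%), against 3.46% of 27025 genes with a window. The Stat motif TTCNNNGAA was in 4 of the 23 (17.4%), against 8.13% of genes. A match is a description of the letters and not of a bound site. Stretches from 5 genes are shown, picked from the interferon and class I genes described here that hold the first motif. Cxcl10 holds it too and is not shown. Lgals3bp, Gbp6, Ifi35, H2-D1 and Tap2 had no match or no window. They are written along the gene's own strand with the match in capitals:
Bst2, chr8:71537547-71537642, minus strand: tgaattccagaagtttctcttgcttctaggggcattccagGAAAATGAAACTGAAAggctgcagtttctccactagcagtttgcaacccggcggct
Isg15, chr4:156200835-156200936, minus strand: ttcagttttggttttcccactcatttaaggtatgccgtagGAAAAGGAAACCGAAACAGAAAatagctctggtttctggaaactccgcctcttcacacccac
Gbp3, chr3:142559959-142560043, plus strand: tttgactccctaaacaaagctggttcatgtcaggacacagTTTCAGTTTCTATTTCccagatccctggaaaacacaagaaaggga
B2m, chr2:122147508-122147597, plus strand: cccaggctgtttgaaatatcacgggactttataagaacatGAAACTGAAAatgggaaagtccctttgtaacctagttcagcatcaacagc
H2-T23, chr17:36032776-36032865, minus strand: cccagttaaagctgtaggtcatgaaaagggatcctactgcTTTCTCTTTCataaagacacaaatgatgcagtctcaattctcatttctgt
Overlapping matches run together in Bst2 (2 matches), Isg15 (3) and Gbp3 (2), and the matches in Gbp3 and H2-T23 read on the opposite strand. In Bst2 the matches lie 130 to 115 bases before the start site, in Isg15 78 to 57, in Gbp3 45 to 30, in B2m 139 to 130 and in H2-T23 124 to 115.

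Class I genes build the complex that shows peptides to CD8+ T cells, with the light chain B2m, the heavy chains, the Tap transporters and the immunoproteasome. Of 21 tested, 20 were lower and 1 higher, with a median of -0.23, and none passed. HAN pools lay below all PBS pools for 10 of the 21 and above for 0, against 10.4% of all genes each way. The list mean was -0.26, -0.40 and -0.17 in HAN 1 to 3 and lay between -0.02 and 0.02 in the PBS pools, so the 3 HAN pools were all lower. B2m read 2.13, 2.33 and 2.10 in PBS and 1.38, 1.43 and 1.78 in HAN, a difference of -0.65 (SE 0.13, limma, adjusted p = 0.292). The heavy chains H2-T23 and H2-D1 each differed by -0.61, and the transporter subunit Tap2 by -0.23, without overlap and without passing (limma, adjusted p = 0.292 to 0.297). With slide as a fixed block the list median turned to 0.05 with 8 of 21 lower, H2-T23 to 0.09 and Tap2 to 0.02. The interferon-response motif was in 2 of 18 class I genes with a window (11.1%), B2m and H2-T23.

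Microglia and macrophage markers were mostly lower, and chiefly in HAN 2. Of 27 tested, 23 were lower and 4 higher, with a median of -0.38. HAN lay below all PBS pools for 11 of the 27 and above for 1, against 10.4% of all genes each way. None passed. The list mean was -0.21, -0.80 and -0.08 in HAN 1 to 3, against 0.10, -0.13 and 0.04 in PBS. Without HAN 2 the median was -0.14, under normexp correction -0.11 with 17 of 27 lower, and with slide as a fixed block -0.16 with 18 of 27 lower. Lyz2, the lysozyme of myeloid cells, read -1.48, -2.91 and -1.54 in PBS and -3.60, -4.21 and -3.04 in HAN. HAN 3 lay just under PBS 2, and the difference was -1.64 (SE 0.48, limma, adjusted p = 0.313). Tyrobp, the adaptor of microglial receptors, differed by -0.85 and Fcrls, a microglial surface gene, by -0.30 (limma, adjusted p = 0.341 and 0.336). Of the 4 higher members the largest difference was 0.94. Itgam, the integrin chain CD11b, differed by 0.42 and was the 1 member with HAN above all PBS pools, but its other probes gave -0.15 to 0.28. The Itgam probe used had a mean level of 5.42 in PBS, where the list's mean level was -1.16 to -0.93. Whether it reports Itgam was not tested. Fcrls turned to 0.08 under normexp correction.

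Genes of phagocytosis, complement and class II presentation were mostly lower as well. Of 21 Fc receptor and lysosome genes, 20 were lower, with a median of -0.17 that shrank to -0.04 with slide as a fixed block. HAN lay below all PBS pools for 7, where 10.4% of all genes did so. Ctsz and Ctsd, lysosomal proteases, differed by -0.30 and -0.33, Cyba, a subunit of the phagocyte oxidase, by -0.33, and Fcgr1, the high-affinity IgG receptor, by -0.38. Of 15 complement genes 13 were lower (median -0.19, or -0.07 without PBS 1 and -0.43 without PBS 2). Cfi, which inactivates C3b, differed by -0.39 without overlap and Cfb by -1.24 with overlap. Of 10 class II genes 8 were lower with a median of -0.44, but only 1, Ctss, a protease that trims the invariant chain (-0.66), had HAN below all PBS pools. The class II median was -0.07 without PBS 1, 0.37 under normexp and 0.37 with slide as a fixed block. None of these genes passed. Fcgr1 turned to 0.26 under normexp, and Cfb to 0.55 and the complement median to 0.55 with slide as a fixed block.

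Gliosis, acute-phase and stress genes were lower on balance in HAN, with wide spread between pools. Of 35 tested, 26 were lower and 9 higher, with a median of -0.18. HAN lay below all PBS pools for 9, where 10.4% of all genes did so, and none passed. The list mean was -0.25, -0.54 and -0.13 in HAN 1 to 3, against 0.30, -0.27 and -0.03 in PBS, so the groups overlapped. The median was -0.08 without PBS 1, -0.38 without PBS 2, -0.09 without HAN 2 and 0.18 with slide as a fixed block, where 13 of 35 were lower. Lcn2, the iron-siderophore carrier of reactive glia, read 1.19, 1.09 and 1.25 in PBS and 0.11, -0.22 and 0.75 in HAN. All HAN pools were lower, HAN 3 least, and the difference was -0.97 (SE 0.24, limma, adjusted p = 0.297). Steap4, a metalloreductase, was not well above background on any HAN array and was at least 1.62-fold lower. Gfap, the intermediate filament of reactive Mueller glia, read -0.78, -1.44 and -0.68 in PBS and -0.43, -1.88 and -1.13 in HAN, with overlap and a difference of -0.18 (SE 0.40, limma, adjusted p = 0.871). Its sign turned without HAN 2 (0.18) and with slide as a fixed block (0.40), where Lcn2 also turned (0.18), and Steap4 turned under normexp correction (0.64).

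Some stress genes of injured neurons split the HAN pools. The list of 18 axon injury genes lay at -0.39, -0.49 and 0.04 in HAN 1 to 3 and between -0.02 and 0.04 in PBS, with 12 lower, 6 higher and a median of -0.17 (-0.01 under normexp correction). Differences of the members ran from -2.52 to 1.31. HAN lay below all PBS pools for 2 members and above for 1, against 10.4% of all genes each way. Ecel1, a peptidase of injured neurons, read -0.25, 1.71 and 0.11 in PBS and -2.74, -3.59 and 0.34 in HAN. HAN 1 and HAN 2 were far below all PBS pools and HAN 3 was within their range, so the difference of -2.52 had an SE of 1.11 (limma, adjusted p = 0.417). Sprr1a and Edn2, added after their values were seen, also had HAN 1 and HAN 2 below all PBS pools and HAN 3 within their range: the growth-associated Sprr1a (-2.92, -0.65, -2.36 in PBS and -4.80, -4.63, -2.25 in HAN) and the endothelin gene Edn2 (0.41, 1.72, 1.24 and -1.18, -1.17, 0.71). HAN 3 lay on slide 3 and the other HAN pools on slide 2, and the part of the slide in this was not tested. Tnfrsf10b, a death receptor, was higher in every HAN pool (0.36), and Adcyap1, a neuropeptide gene, was lower in every HAN pool (-0.40), neither passing.

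Immediate early and cytokine genes were lowest in HAN 2 and nearest to PBS in HAN 3. The 23 immediate early genes had a median of -0.06 (16 lower, 7 higher) and means of -0.15, -0.36 and -0.01 in HAN 1 to 3. Egr1 read 0.08, 0.06 and -0.07 in PBS and -0.61, -0.94 and -0.24 in HAN (difference -0.62, SE 0.18, limma, adjusted p = 0.311). Atf3 differed by -0.79 and Egr2 by -1.41, with HAN below PBS in each pool, though only 1 HAN array had Egr2 well above background. Egr1, Atf3 and Egr2 were the only 3 of the 23 with HAN below all PBS pools, where 10.4% of all genes did so. Jund (0.16) was the 1 member with HAN above all PBS pools. Of 25 cytokine, chemokine and adhesion genes 19 were lower (median -0.16), with means of -0.21, -0.50 and -0.14 in HAN 1 to 3. Among them were Ccl3, a chemokine for myeloid cells (-1.45), Tnfrsf12a, the receptor of Tweak (-0.48), and the Toll adaptors Myd88 (-0.24) and Ticam1 (-0.21), without overlap. In this list 7 of 25 had HAN below all PBS pools and 0 above, against 10.4% of all genes each way. Cdkn1a, the p53 target that stops the cell cycle, differed by -0.64 without overlap, in a list of 21 apoptosis genes of which 15 were lower. Of these 21, 4 had HAN below all PBS pools and 2 had HAN above, against the same 10.4% each way. None passed. Ccl3, Egr2, Ticam1 and Cdkn1a turned in sign under normexp correction (0.09, 0.29, 0.25 and 0.02), as did the medians of the immediate early genes (0.23), the cytokine genes (0.06) and the apoptosis genes (0.16). Slide as a fixed block turned Myd88 (0.08), Cdkn1a (0.49), Edn2 (0.08) and the cytokine median (0.16).

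**Figure D4:**
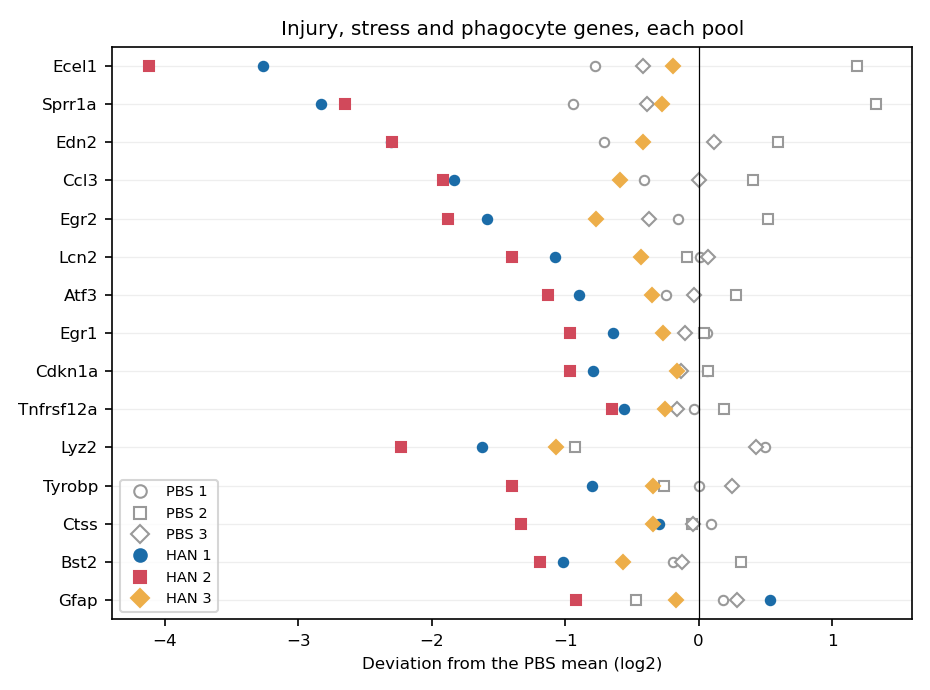
Deviation of each pool from the PBS mean (log2, horizontal) for 15 injury, stress and phagocyte genes, with open grey symbols for PBS pools and filled symbols for HAN pools. The genes were picked by no fixed rule with earlier results of these data known, and each has a lower HAN mean. Higher members of such lists, Tnfrsf10b (0.36), Itgam (0.42) and Jund (0.16) among them, are not drawn. Nor are the members with the largest rise in the axon injury (1.31), gliosis (1.08) and microglia (0.94) lists. HAN 1 and HAN 2 lie farthest left for most genes and HAN 3 nearest to PBS; no gene passed, and Ccl3, Egr2 and Cdkn1a (normexp) and Edn2, Lcn2, Cdkn1a and Gfap (slide block) turn in sign under the alternative named.

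Photoreceptor and energy genes were lower by small amounts. Of 32 rod genes 29 were lower with a median of -0.12, and none passed. HAN lay below all PBS pools for 3 of the 32, a share close to the 10.4% of all genes: Sag (the arrestin that quenches rhodopsin), Gnat1 (rod transducin) and Rcvrn (recoverin). Sag read 6.18, 6.53 and 6.51 in PBS and 6.14, 6.10 and 6.09 in HAN, so that PBS 1 was near the HAN pools (-0.30, SE 0.11, limma, adjusted p = 0.356). Gnat1 differed by -0.22 and Rcvrn by -0.23. The list mean was -0.16 in PBS 1, inside the HAN range of -0.18 to -0.10, and the rod median was -0.06 without PBS 2, -0.19 without PBS 1, -0.25 under normexp correction and -0.37 with slide as a fixed block. Of 16 cone genes 13 were lower (median -0.10): Gnb3 differed by -0.41 and Rxrg by -0.27, whose other probe gave 0.19, while the cone arrestin gene Arr3 lay at 0.27, all without passing.

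All 30 oxidative phosphorylation genes were lower, by a median of -0.09 and none by more than -0.26, but HAN lay below all PBS pools for only 1, where 10.4% of all genes did so. The median was -0.20 under normexp correction, and 22 of the 30 were lower without PBS 2. PBS 1 (-0.10) again lay with the HAN pools (-0.13, -0.04 and -0.12). Of 16 glycolysis genes 13 were lower (median -0.08, or -0.19 under normexp correction), with Slc16a8, the lactate exporter of the pigment epithelium, at -0.47 and Pfkl at -0.18. Of 21 endoplasmic reticulum stress and heat shock genes 17 were lower (median -0.11), with Manf at -0.25, Hspa5, the chaperone BiP, at -0.26 and Pdia6 at -0.24. None passed, and Slc16a8 turned to 0.60 with slide as a fixed block. Bright genes were slightly lower as a whole: the 5964 brightest genes tested had a median of -0.04 and the 5964 dimmest 0.07, and the oxidative phosphorylation genes averaged 3.79 to 3.97 log2 units above the 75th percentile.

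Ganglion cell genes pointed the other way. Of 24 tested, 21 were higher and 3 lower with a median of 0.17, 7 had HAN above all PBS pools, where 10.4% of all genes did so, and none passed. The list mean was 0.23, 0.13 and 0.11 in HAN 1 to 3 and 0.03, -0.12 and 0.09 in PBS, so HAN 3 and PBS 3 were close. Nefl, the light neurofilament of long axons, read 3.76, 3.79 and 3.92 in PBS and 4.09, 4.11 and 3.996 in HAN, a difference of 0.24 (SE 0.07, limma, adjusted p = 0.311). Rbpms, an RNA-binding marker of all ganglion cells, differed by 0.34 (other probes 0.12 to 0.31), the transcription factor Isl2 by 0.27 and Ebf1 by 0.17, all without overlap. The median was 0.10 without PBS 2 and 0.00 with slide as a fixed block, where 12 of 24 were lower and Nefl turned to -0.15.

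Synaptic genes had no common direction. The 26 vesicle release genes had a median of 0.01 (12 lower, 14 higher). HAN lay above all PBS pools for 5 and below them for 3, against 10.4% of all genes each way. Rims1, a scaffold of the active zone, read -2.64, -2.81 and -2.83 in PBS and -2.35, -2.10 and -1.86 in HAN, a difference of 0.66 (SE 0.14, limma, adjusted p = 0.292), while its other probe gave 0.10. Snap25, a subunit of the fusion machinery, differed by 0.43, Syt2, a calcium sensor of release, by 0.34 and Vamp1 by 0.30. Among 26 amacrine and horizontal cell genes (median 0.01), the neuropeptide gene Vip differed by -0.38 and Th, the rate-limiting enzyme of dopamine synthesis, by -0.27, each with HAN below PBS in every pool (limma, adjusted p = 0.292). The 22 bipolar cell genes had a median of 0.06, 16 higher and 6 lower. None of these passed.

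Clock genes were more often higher: of 21 tested 16 were higher and 5 lower, with a median of 0.08. HAN lay above all PBS pools for 8 of the 21 and below for 2, against 10.4% of all genes each way. The median was 0.03 under normexp correction and 0.01 with slide as a fixed block. Besides Ciart, they included Per2, a clock repressor (0.32), and the output factors Hlf (0.21) and Dbp (0.18). Per2 read -3.08, -3.27 and -3.25 in PBS and -2.98, -2.94 and -2.70 in HAN. None passed (limma, lowest adjusted p = 0.292), and the labels do not give the hour at which retinas were taken.

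Genes of the VEGF pathway, which the peptides are aimed at, had no common direction. Of the 11 ligands, receptors and co-receptors 5 were lower and 6 higher (median 0.01). Vegfa, the main ligand, read 1.53, 1.51 and 1.39 in PBS and 1.46, 1.53 and 1.72 in HAN, with overlap, a difference of 0.09 (SE 0.09, limma, adjusted p = 0.694). Its receptors Kdr (-0.03) and Flt1 (0.08), the co-receptor Nrp1 (0.05) and the related ligand Pgf (0.01) overlapped as well, with SE of 0.08, 0.06, 0.14 and 0.21. Other probes of Kdr and Vegfa gave -0.32 and 0.19. Vegfc, the lymphatic ligand, was lower in every HAN pool (-0.10). The signs of Kdr, Flt1, Nrp1, Pgf and Vegfc turned under at least 1 alternative, with values of -0.19 to 0.16. These are transcript levels and say nothing of the protein that the peptides bind.

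Vessel genes were as evenly split. The 30 endothelial genes had a median of -0.02, 16 angiopoietin, Tie and Notch genes 0.01, 15 pericyte genes -0.01, 16 semaphorin and plexin genes 0.03 and 24 targets of hypoxia-inducible factor 0.04. Tfrc, the transferrin receptor of barrier endothelium, read -0.04, -0.21 and -0.20 in PBS and 0.23, 0.38 and 0.23 in HAN, higher in every pool by 0.43 (SE 0.08, limma, adjusted p = 0.292), and its other probes gave 0.11 to 0.34. Abcc9, a channel subunit of pericytes, was higher by 0.52 and Plxna3, a semaphorin receptor, by 0.39, as was Sema6a by 0.30. Mcam, an adhesion molecule of mural cells, differed by -0.36, Slco1c1, a thyroid hormone transporter of the barrier, by -0.25 and Cav1, the caveolin of endothelium, by -0.30. The Notch ligand Jag1 (0.15) and the smooth muscle myosin Myh11 (-1.16) overlapped between groups. None passed, and Cav1 and Myh11 turned under normexp correction to 0.25 and 0.10.

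Matrix, glia and iron genes held a few members that stood apart from lists with medians of -0.05 to 0.05. The coagulation and metallothionein medians were -0.16 and -0.15. Dcn, the proteoglycan decorin, read 2.07, 2.07 and 1.00 in PBS and -0.10, 0.58 and 0.44 in HAN, a difference of -1.41 (SE 0.35, limma, adjusted p = 0.294). The related Bgn differed by -0.56 and Mmp14, a membrane-bound matrix protease, by -0.33. Of the 30 matrix genes 14 were lower and 16 higher, with a largest rise of 1.42. HAN lay below all PBS pools for 4 of them and above for 0, against 10.4% of all genes each way. The matrix median was 0.04 and turned to -0.11 without PBS 2 and -0.05 without HAN 1. Plat, tissue plasminogen activator, differed by -0.56 in 19 coagulation genes (median -0.16, or -0.05 without PBS 1 and 0.30 under normexp). Of 26 Mueller glia and astrocyte genes 17 were lower (median -0.05), with Dio2, which activates thyroid hormone, at -0.64 and Apoe at -0.35. Mt1 and Mt2, the metal-binding metallothioneins, differed by -0.16 and -0.25 and Mt3 by -0.13. Mt4 lay at 1.39, with overlap and with HAN 2 at 2.87. Trf, which carries iron, differed by -0.38, Clrn1, an Usher syndrome gene, by -0.26, and Cat, which breaks down hydrogen peroxide, by 0.51. None passed. Mmp14 and Clrn1 turned under normexp correction (0.19 and 0.41), and Dcn, Mt2 and Trf with slide as a fixed block (1.17, 0.18 and 0.42).

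Markers of tissues next to the retina were measured in the same pools. All 23 lens genes were higher in HAN by a median of 1.03, but PBS 2 alone lay at -2.08, against 1.104 and 0.974 in the other PBS pools and 0.53 to 1.38 in HAN. Without PBS 2 the lens median was 0.03, with 10 of 23 lower. Gja3, a lens connexin, read -1.34, -5.21 and -2.57 in PBS and -1.79, -1.16 and -1.91 in HAN. Pigment epithelium genes were lower in 11 of 14 (median -0.23), with means of -0.13, 0.10 and -0.47 in HAN 1 to 3: Ttr, the thyroid hormone carrier, differed by -0.45 and Enpp2 by -0.31. Melanin genes lay at -0.45, 0.51 and -0.78 in HAN 1 to 3, with Gpr143 at -0.58 and Slc45a2 at -0.82. The 18 skeletal muscle genes lay between -0.04 and 0.03 in HAN, against 5.23, -0.12 and 3.71 in AAP 1 to 3. Cornea genes averaged 1.11 in PBS 1 and -0.72 to -0.12 in the other 5 pools, and 10 erythrocyte genes had a median of -0.09. Of 13 neutrophil and lymphocyte genes 9 were lower (median -0.06). S100a8, a neutrophil protein, differed by -1.73, with 2 of 3 HAN arrays well above background. None passed, and the part of these tissues in the results above was not tested. With slide as a fixed block Gja3 turned to -0.48, Enpp2 to 0.51, Ttr to 0.69 and Gpr143 to 0.52, and under normexp correction S100a8 turned to 0.20 and Slc45a2 to 0.16.

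**Figure D5:**
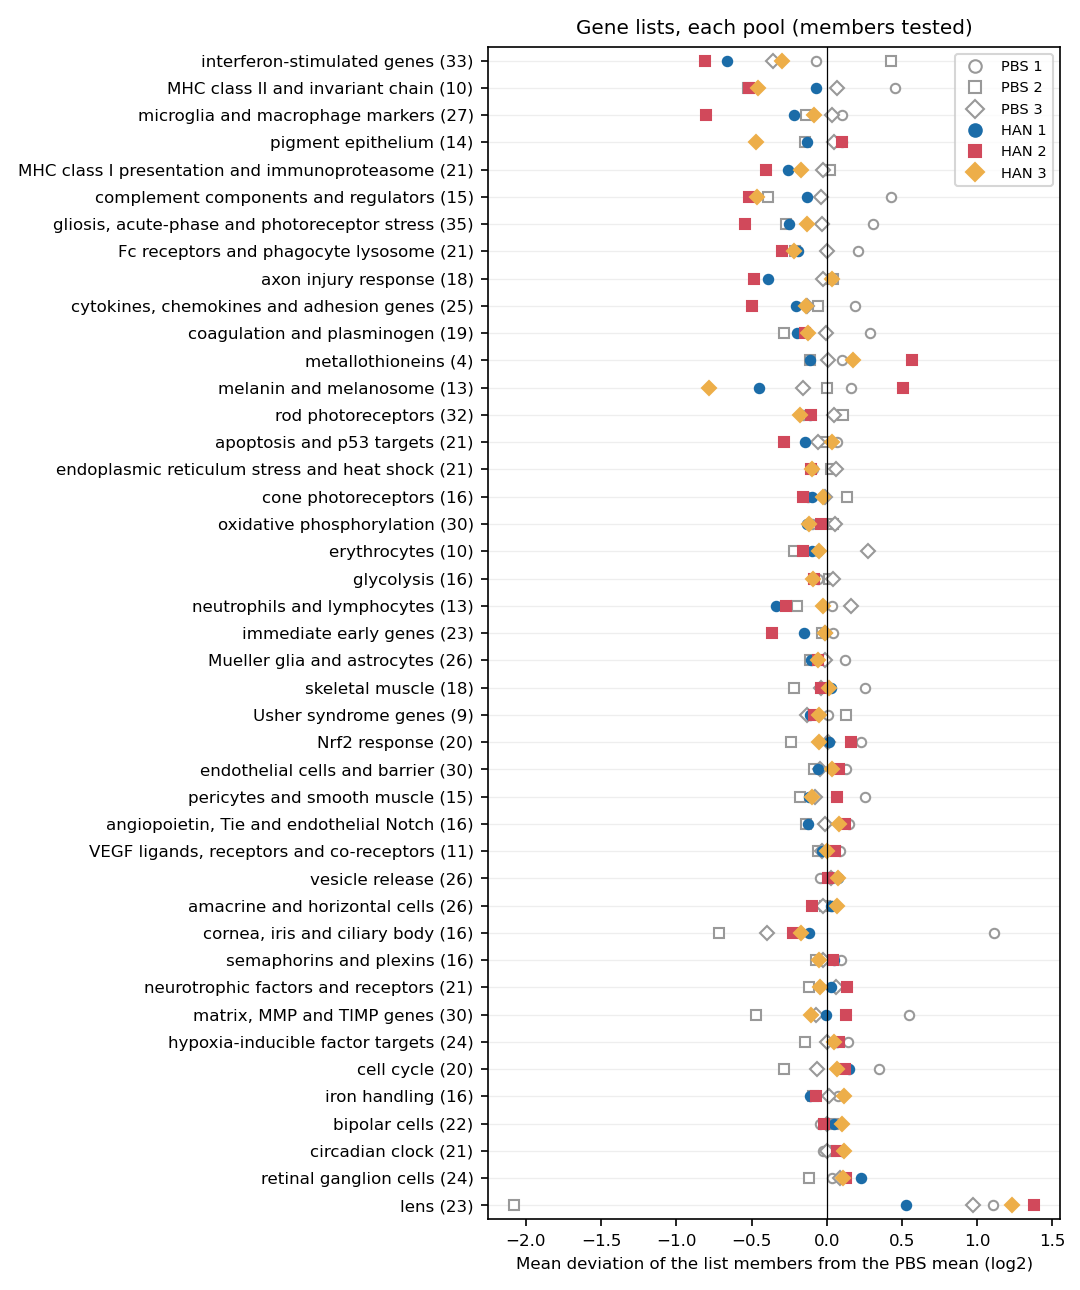
Mean deviation of the tested members of each of 43 gene lists from the PBS mean (log2, horizontal), with the number of members in brackets, open grey symbols for the PBS pools and filled symbols for the HAN pools, ordered by the median difference. Interferon genes are at the top with HAN 2 at -0.81 and PBS 2 at 0.43, and lens genes at the bottom with PBS 2 at -2.08; several list medians turn in sign with slide as a fixed block, class I, class II, complement, gliosis and lens genes among them.

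HAN and AAP share the PBS control pools, so their differences from PBS are set side by side only. For the interferon list the median was -0.47 in HAN and -0.32 in AAP, for class I -0.23 and -0.18, for microglia -0.38 and -0.65, for gliosis -0.18 and -0.70, for rods -0.12 and 0.03, and for ganglion cells 0.17 and 0.13. Tested directly over all 9 arrays with limma, HAN and AAP differed at an adjusted p under 0.05 in 0 of 23862 genes (0%, lowest adjusted p = 0.574), with 2036 genes at an unadjusted p under 0.05. Without AAP 2 this count was 27, and without HAN 1 or HAN 3 it was 2.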

How the data were processed

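Per the labels' protocols, RNA was isolated with Trizol, and cRNA carried 1 dye, Cy3. Per the file headers, spots were quantified with Agilent Feature Extraction 11.0.1.1 (protocol GE1_1100_Jul11, design on mm9), and the deposited processed signal is a linear intensity, background-subtracted within an array, with no scaling between arrays. The authors' deposited value table held the same intensity (at least 99.7% of its values equal within a relative tolerance of 0.0001), with column medians of 298.3, 256.4 and 231.9 (PBS 1 to 3), 265.5, 237.6 and 164.7 (AAP 1 to 3) and 251.1, 242.5 and 296.5 (HAN 1 to 3). The authors' own tests are not given in the sources used here.

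Of 44397 spots on an array, 43020 were not controls. Control and outlier spots (103 to 160 an array) were dropped, log2 signals were set against the array's 75th percentile, and spots were averaged to 39429 probes. Accessions matched 26055 probes to 19751 symbols of a RefSeq table on GRCm38.p6, and 13374 kept an accession. A probe was kept when well above background on all arrays of at least 1 group, and a gene took its kept probe of highest mean. Where no array of a group was above background, "at least" folds use the lowest signal above background as the floor, or the probe's own signal where that is higher. These folds concern the group means and are not confidence limits. HAN and PBS were compared with limma 3.58.1 in R 4.3.3 (lmFit and eBayes, 4 residual and 1.83 prior degrees of freedom, two-sided, Benjamini-Hochberg over 23854 genes), on the 6 arrays, since the AAP pools spread more. The script was tested on simulated data.

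Named were 12 genes in each direction by p with pools that did not overlap, Vegfa, Kdr, Flt1, Nrp1, Pgf, Gfap and up to 4 members of smallest p in each of 43 lists, not all of which are printed. Of 931 list symbols 917 were on the array. Members and lists were chosen with earlier results of these data known. Alternatives changed the arrays fitted, background, scaling, filter, probe rule, array weights, prior, slide and replicate block, and left out each pool in turn. Replicate numbers did not pair the pools: deviations of same-numbered pools had r of 0.01, -0.16 and -0.22 across genes.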

Additional observations from a re-analysis of the deposited data

How the results depend on the processing

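Of the counts past the threshold, the 1 gene higher became 0 under normexp, quantile normalisation, no filter on dim probes and the replicate block, and 2 with slide as a fixed block (ENSMUST00000066789, 1.85, and XM_286199, 4.85). Leaving out 1 pool gave 0 to 7 higher (7 without HAN 3) and 0 to 2 lower (1 without PBS 2, 2 without PBS 3), and array median scaling gave 1 lower. For HAN against AAP, leaving out 1 pool gave 0 to 27. Normexp (offset 50) was run on the median spot signal and moved the median of all genes to 0.15 (32.3% of genes lower). The rod median was -0.25 under normexp and -0.37 with slide as a fixed block. Ganglion cell genes lower numbered 5 under normexp and array median scaling, 3 to 6 with 1 pool left out, and 12 with the slide block (median 0.0045). With the slide block 8 class I genes (median 0.0476) and 13 gliosis genes (median 0.18) were lower. The interferon and microglia medians kept their sign under all alternatives run but shrank to -0.30 and -0.11 under normexp, and to -0.18 and -0.16 with the slide block.

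Differences that turned in sign under normexp were those of NM_054080 (0.19), Flt1 (-0.0034), Fkbp11 (0.52), Ifi35 (0.0385), Fcrls (0.0763), Fcgr1 (0.26), Ticam1 (0.25), Ccl3 (0.0906), Steap4 (0.64), Egr2 (0.29), Vegfc (0.16), Cav1 (0.25), Myh11 (0.10), Mmp14 (0.19), Cdkn1a (0.0228), S100a8 (0.20), Slc45a2 (0.16) and Clrn1 (0.41). With slide as a fixed block these were Pgf (-0.19), Gfap (0.40), H2al2a (-0.0212), Selenop (0.22), Cxcl10 (0.44), H2-T23 (0.0877), Tap2 (0.0180), Cfb (0.55), Myd88 (0.0836), Lcn2 (0.18), Mt2 (0.18), Nefl (-0.15), Edn2 (0.0829), Dcn (1.17), Slc16a8 (0.60), Cdkn1a (0.49), Trf (0.42), Gja3 (-0.48), Enpp2 (0.51), Ttr (0.69) and Gpr143 (0.52). Pgf turned under array median scaling (-0.0340) and quantile normalisation (-0.0347), Kdr under quantile normalisation (0.0039). With 1 pool left out, Pgf ran from -0.15 to 0.21, Nrp1 from -0.0552 to 0.18, Kdr from -0.11 to 0.0192 and Gfap from -0.54 to 0.18. The random slide block had a consensus correlation of 0.01. Why these turned was not tested. The number of arrays limits the precision.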

Other observations

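The sign of the difference went with the kind of accession behind a probe. Of 1111 transcripts known only by a full-length cDNA accession (AK), 73.6% were higher in HAN, with a median of 0.12, and 26.2% had every HAN pool above every PBS pool against 4.23% below. Of 2113 transcripts with an Ensembl accession 64.5% were higher, with a median of 0.07, but their median deviation from the PBS mean was 0.15 in HAN 3 against 0.03 in HAN 1 and 0.00 in HAN 2, with PBS 2 at 0.03. For the AK transcripts it was 0.18 in HAN 3, 0.08 in HAN 1 and 0.06 in HAN 2, with PBS 2 at 0.05. Of 15807 curated mRNAs 49.0% were higher, with a median of -0.00. The 2970 predicted mRNAs (XM) had a median of 0.02, with 54.2% higher. A further 1494 transcripts with accessions of other kinds had a median of -0.07, and 22.8% had HAN below PBS in every pool, while 326 noncoding (NR) and 33 predicted noncoding (XR) transcripts had medians of 0.03 and -0.08.

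HAN 3 stood apart among dim genes. In the 5964 dimmest genes its median deviation from the PBS mean was 0.22, against -0.05 in HAN 1 and -0.06 in HAN 2. It had 674 genes more than 2-fold above the PBS mean and 84 below, where HAN 1 had 135 and 208 and HAN 2 had 219 and 218. Within PBS, PBS 1 had 268 above and 4 below, and PBS 2 had 31 above and 239 below. HAN 3 was also the only array on its slide, and the part of the slide in this was not tested.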
